A study of Mus musculus with 16 samples.

Results

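Definitive endoderm and its progenitors, formed in culture, were compared on 8 of the 16 arrays of the series, 4 arrays of F+CD24high cells, called definitive endoderm by the study, and 4 arrays of F+CD24low cells, called definitive endoderm progenitors. The arrays were chosen by their labelled sort gate and medium, and each gate contributed 2 biological replicates at day 2 and 2 at day 4. All cells came from 1 mouse embryonic stem (ES) cell line, labelled E14.1 (129/Ola) by the submitters, that carried a GFP reporter on 1 allele of T and a tagRFP reporter on 1 allele of Foxa2. Both gates were cultured in the same endoderm medium with 12 ng/ml activin A on feeder cells that express Wnt3a, and the sorted cells were Foxa2-reporter positive and T-reporter negative, so that the level of surface CD24 was the only difference between the gates. The remaining arrays held undifferentiated ES cells, grown on mitomycin-treated fibroblast feeders, and T-reporter positive cells, and served here only for the estimate of the spread and, for ES cells, as a reference level. The labels give both gates the stage definitive endoderm. All groups rest on this 1 line, and the arrays measure sorted cells of a culture, not embryonic tissue.

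Definitive endoderm is the germ layer that forms the epithelium of the gut and its organs. Its progenitors leave the pluripotent epiblast in the anterior primitive streak under Nodal and Wnt signals, switch on Foxa2, and then Sox17, as they leave pluripotency. CD24 is a small surface protein anchored in the membrane by a lipid, and serves here as a handle to split Foxa2-positive cells. Levels below are log2 signals per gene after RMA, the standard summary of Affymetrix probes, and a difference of 1 on this scale is a doubling. Signals of different genes are not comparable with each other, so each gene is compared only with itself across arrays.

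The gate genes were read first. Foxa2, the pioneer forkhead factor behind the reporter, lay between 10.00 and 11.41 on the F+CD24low arrays and between 10.33 and 11.17 on the F+CD24high arrays, a difference of 0.02 ± 0.15 (SE) with an adjusted p of 0.945 from limma. Cd24a lay between 12.55 and 13.02 on the F+CD24low arrays and between 13.16 and 13.45 on the F+CD24high arrays. Its difference of 0.54 ± 0.09 had a limma adjusted p of 0.000769 but stayed under the fold threshold, and since CD24 protein set the gates this gives no finding. Against their defining markers the gates kept the names that the study gave them. All 8 definitive endoderm markers (Sox17, Foxa1, Foxa3, Hhex, Gata4, Gata6, Cxcr4, Cer1) were higher in F+CD24high, with a mean level of 11.02 to 11.73 there against 8.09 to 9.30 in F+CD24low. Of the 5 pluripotency markers, 4 (Pou5f1, Nanog, Sox2, Utf1) were lower, with a mean over all 5 of 7.86 to 9.13 against 10.85 or more in F+CD24low. The fifth, Zfp42, lay between 5.65 and 6.31 on all 8 arrays and at 9.95 and 10.72 in ES cells.

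One pair of replicates stood apart. The 2 F+CD24high arrays of day 2 differed by more than 1 log2 unit in 123 genes, against 8, 4 and 0 genes in the other pairs of the comparison. Replicate 2 of this pair carried Col1a1 at 10.40, a fibroblast collagen that lay between 8.08 and 8.39 on the other 6 arrays outside the pair, and Wnt3a at 9.19 against 7.12 to 7.65 on the other 15 arrays. Replicate 1 was low in Srgn, a proteoglycan core protein, at 7.98 against 12.33 in replicate 2, and in the endocytic receptor gene Cubn, at 6.09 against 9.71. The feeder cells of the culture express Wnt3a, and their part in these signals was not tested. The fibroblast marker Postn lay between 5.14 and 5.38 on all 8 arrays and above 10 in ES cells, at 10.36 and 10.18, and none of 5 fibroblast markers passed the fold threshold between the gates, with mean levels of 7.29 to 7.43 in F+CD24low and of 7.26 to 8.09 in F+CD24high. Thy1 (-0.54) and Col3a1 (0.24) differed below that threshold, with limma adjusted p of 0.024 and 0.0432. Results that turn on either array are given with and without it.

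Across 18716 genes, 411 were higher and 463 lower in F+CD24high when the 2 days were weighted equally, which is 2.20% and 2.47% of the genes tested. A gene was called when its difference exceeded 1 log2 unit in size and the Benjamini-Hochberg adjusted p of limma was below 0.05, and the median difference over all genes was 0.01. All 4 F+CD24high arrays lay above all 4 F+CD24low arrays in 375 of the 411 and below them in 447 of the 463. Over all genes 11.9% were separated upwards and 13.8% downwards. The calls were made on the same arrays, so this separation is a description and adds no support. Larger changes were split unevenly, with 106 genes higher and 82 lower by more than 2 log2 units, and 21 higher and 16 lower by more than 3. Without replicate 1 of the F+CD24high day 2 pair, 450 genes were higher and 464 lower, of which 398 and 439 were among the calls above. Without replicate 2 the counts were 400 and 484, of which 383 and 441 were shared, and in both fits the lone array was assumed to vary like the other groups. A change of cell proportions within a gate and a change of RNA per cell cannot be told apart in these bulk samples.

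**Figure D1:**
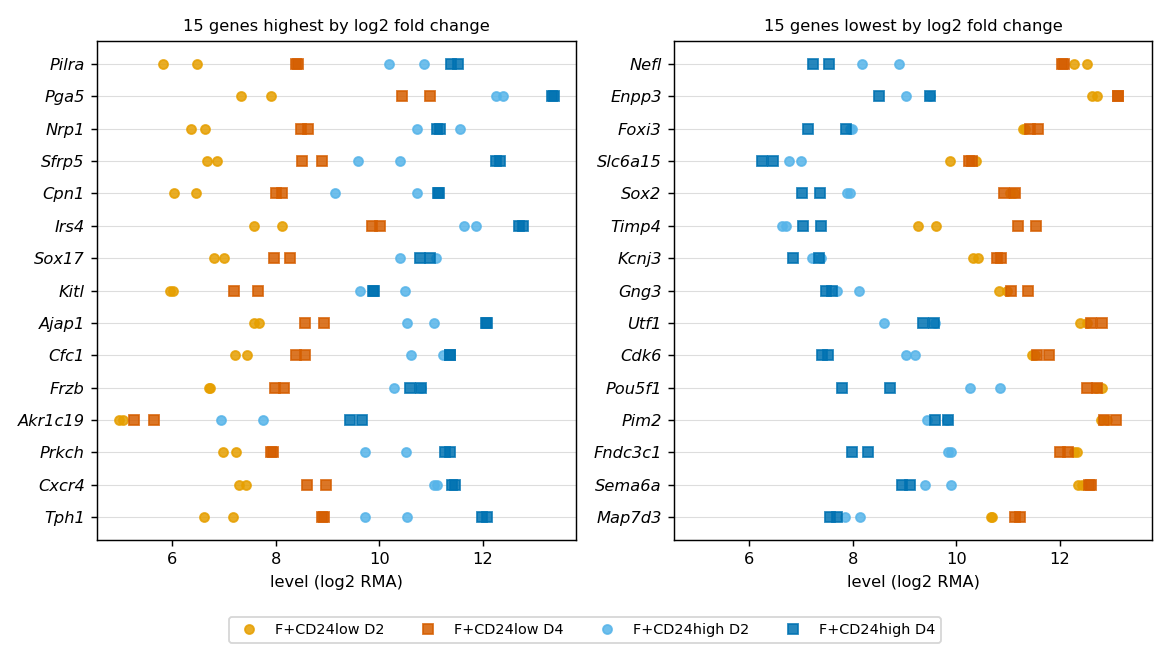
Level (log2 RMA, horizontal axis) of the 15 genes with the highest (left) and the 15 with the lowest (right) difference between the gates among genes called and separated; each point is 1 array, circles are day 2, squares day 4, orange shades F+CD24low and blue shades F+CD24high. For every gene shown the 4 blue points lie on 1 side of the 4 orange points, as for Pilra, at 5.82 to 8.42 in F+CD24low and 10.19 to 11.52 in F+CD24high.

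The genes with the largest rise mixed guidance, secreted and metabolic genes with endoderm factors. Nrp1, the neuropilin co-receptor for class 3 semaphorins and VEGF, lay at 6.62 and 6.35 on the F+CD24low arrays of day 2 and at 8.61 and 8.48 on those of day 4. In F+CD24high it lay at 10.73 and 11.56 at day 2 and at 11.17 and 11.12 at day 4, a difference of 3.63 ± 0.18 (adjusted p = 8.99e-08, limma). The F+CD24low arrays of day 4 thus sat between those of day 2 and the F+CD24high arrays. Within F+CD24low, day 4 also lay above day 2 for all 15 of the most raised genes. Their place below the F+CD24high arrays was fixed by the choice of separated genes. Kitl, the ligand of the receptor Kit, lay at 5.95, 6.01, 7.19 and 7.65 in F+CD24low and at 9.63, 10.50, 9.88 and 9.89 in F+CD24high, with the day 2 arrays first in each series. Its receptor gene Kit was higher as well, by 1.82 ± 0.10, and lay at 9.51 to 9.84 in F+CD24low and at 11.36 to 11.77 in F+CD24high. Ligand and receptor were thus both separated between the gates.

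Pga5, which encodes a pepsinogen, was higher by 3.67 ± 0.13 and Cpn1, a carboxypeptidase of blood plasma, by 3.39 ± 0.26. Tph1, the first enzyme of serotonin synthesis outside the brain, lay at 7.17, 6.60, 8.89 and 8.92 in F+CD24low and at 9.73, 10.53, 11.99 and 12.07 in F+CD24high. It was 9.09-fold higher, a difference of 3.18 ± 0.17. Irs4, an adaptor of insulin and Igf receptors on the X chromosome, was higher by 3.36 ± 0.17, and the protein kinase C gene Prkch by 3.21 ± 0.14. Ajap1, which codes for a protein of adherens junctions, rose by 3.25 ± 0.14 and Akr1c19, an aldo-keto reductase, by 3.21 ± 0.18. The leading gene, Pilra, a paired immunoglobulin-like receptor, lay between 5.82 and 8.42 in F+CD24low and between 10.19 and 11.52 in F+CD24high. Its neighbours Pilrb1 and Pilrb2 were higher by 2.95 and 2.90, but the 3 genes are similar in sequence, and how far their probes separate them is uncertain.

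The genes that fell furthest included several that were also high in ES cells. Nefl, the light neurofilament chain, lay at 12.27, 12.53, 12.08 and 12.04 in F+CD24low and at 8.18, 8.90, 7.54 and 7.23 in F+CD24high, 19.2-fold lower (-4.27 ± 0.14, adjusted p = 6.21e-09, limma). In ES cells Nefl lay at 11.10 and 11.44, so the F+CD24high arrays stood apart from both. Enpp3, an ectonucleotidase of the cell surface, was lower by a log2 difference of -3.77 ± 0.19, Foxi3, a forkhead factor, by -3.67 ± 0.15, and the neutral amino acid transporter gene Slc6a15 by -3.58 ± 0.13. Kcnj3, an inwardly rectifying potassium channel, and Gng3, a G protein gamma subunit, differed by -3.40 ± 0.14 and -3.33 ± 0.12. The serine/threonine kinase gene Pim2 lay between 12.79 and 13.09 in F+CD24low and between 9.44 and 9.84 in F+CD24high.

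Timp4, an inhibitor of matrix metalloproteinases, followed another order. It lay at 9.61 and 9.25 in F+CD24low at day 2 and at 11.19 and 11.54 at day 4, but between 6.63 and 7.39 in F+CD24high and at 6.37 and 6.45 in ES cells. The F+CD24low arrays were therefore the only ones of these 10 with a high level, and the difference between the gates was -2.76 at day 2 and -4.16 at day 4. Calcr, the calcitonin receptor gene, also rose within F+CD24low, from 7.83 and 8.17 at day 2 to 9.55 and 9.38 at day 4, and lay between 7.14 and 7.36 in F+CD24high (-1.49 ± 0.12).

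The levels of the called genes are given beside those of ES cells as a description, since the calls themselves set the gates apart. The median level of the 411 higher genes was 8.19 and 7.99 in ES cells, 7.96 to 8.45 in F+CD24low, 9.59 and 9.88 in F+CD24high at day 2, and 10.48 and 10.45 at day 4. The median of the 463 lower genes was 9.22 and 9.02 in ES cells, 9.28 to 9.35 in F+CD24low, 7.94 and 7.95 in F+CD24high at day 2, and 7.46 and 7.53 at day 4. A median near that of ES cells does not describe each member, and Timp4 lay far from its ES level in F+CD24low. ES cells were grown on fibroblast feeders, and the part of feeder cells in their levels was not tested.

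**Figure D2:**
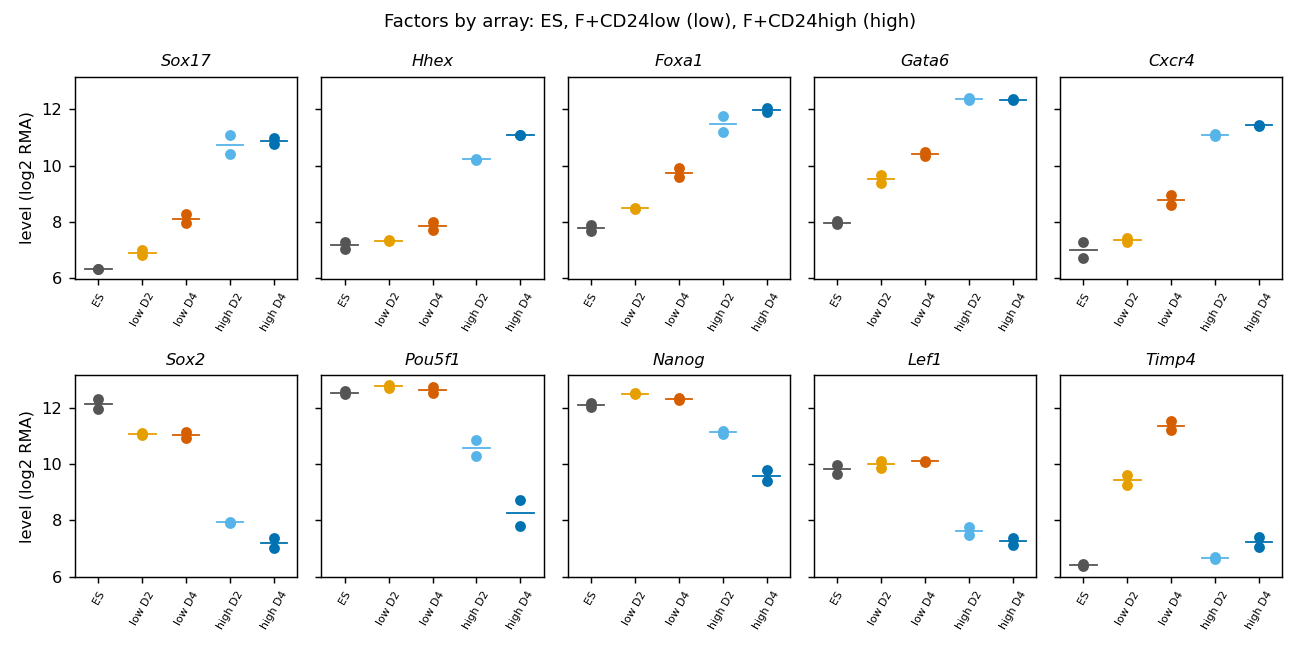
Log2 level of 10 genes on each array of ES cells, F+CD24low day 2 and day 4, and F+CD24high day 2 and day 4; each point is 1 of 2 arrays in its group and the short line is their mean. Sox17, Hhex, Foxa1, Gata6 and Cxcr4 are separated upwards in F+CD24high, Sox2, Pou5f1, Nanog and Lef1 downwards, and Timp4 is high only in the F+CD24low arrays.

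Transcription factors of the endoderm rose as a group. Of 19 measured, 14 were higher and 0 lower at both days together, with a median difference of 2.17, and 16 had an unadjusted limma p below 0.05, all of them upwards. At that unadjusted threshold 17.5% of all genes lay above 0 and 20.2% below, and these shares apply to each such count that follows. Of all genes 2.20% were called higher and 2.47% lower over both days, and these shares stand beside each list count over both days. At day 2 alone 12 of 19 were higher, against 1.78% of all genes, and at day 4 alone 14, against 3.03%. Lhx1, a LIM homeobox factor of the organizer, lay at 9.38, 9.33, 10.51 and 10.53 in F+CD24low and at 12.87, 12.37, 12.60 and 12.70 in F+CD24high. Prdm1, a zinc finger repressor, was higher by 2.98 ± 0.11, and Gsc, the homeobox repressor goosecoid, by 2.25 ± 0.19. These organizer factors were separated between the gates on every array.

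The Gata factors were split. Gata4 was higher by 2.61 ± 0.09 and Gata6 by 2.39 ± 0.08, both zinc finger factors of early endoderm, while Gata5 differed by 0.36 ± 0.07. Gata3 lay at 6.87 to 7.37 in F+CD24low, at 7.56 and 8.37 in F+CD24high at day 2, and at 10.13 and 9.76 at day 4 (1.84 ± 0.19). Gata1, the factor of red cell precursors, lay at 6.80 to 7.08 in F+CD24low and at 8.04, 8.72, 9.14 and 9.28 in F+CD24high, a difference of 1.81 ± 0.13. Of the SoxF genes Sox17 passed, while Sox7 differed by -0.20 ± 0.10, between 7.14 and 7.79 on all 8 arrays, and Sox18 by 0.16 ± 0.09.

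Factors of the later gut tube were called at both days. Foxa1, the partner of Foxa2 in opening chromatin, was higher by 2.61 ± 0.16, with differences of 2.99 at day 2 and 2.23 at day 4. Foxa3, the third member of the family, lay at 7.23 to 7.90 in F+CD24low, at 8.51 and 9.93 in F+CD24high at day 2, and at 10.96 and 10.83 at day 4. Hnf4a, a nuclear receptor of liver and gut, differed by 1.32 at day 2 and by 3.01 at day 4. For none of Foxa1, Foxa3 and Hnf4a did the change between the days pass limma's interaction test, with adjusted p of 0.392, 0.364 and 0.0892. Mixl1 and Otx2, homeobox factors of the streak and the anterior embryo, were just past the threshold, at 1.03 ± 0.12 and 1.05 ± 0.09. The call on Mixl1 was lost without replicate 1 of the F+CD24high day 2 pair (0.92) and without replicate 2 of either gate at day 4 (0.99 and 0.97), and Eomes, the T-box factor upstream of endoderm, was just short at 0.93 ± 0.10.

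Secreted and surface genes of the endoderm gave 10 higher and 1 lower of 21 measured, with a median of 0.69. Cxcr4, the chemokine receptor used to sort endoderm, lay at 7.42, 7.29, 8.59 and 8.97 in F+CD24low and at 11.12, 11.06, 11.46 and 11.41 in F+CD24high (3.20 ± 0.11, adjusted p = 8.98e-09, limma). Cfc1, a co-receptor of Nodal, was higher by 3.25 ± 0.14. The serine protease gene Tmprss2 lay at 7.26 to 8.11 in F+CD24low and at 9.10, 10.31, 10.87 and 10.89 in F+CD24high. Slc2a3, a glucose transporter, was higher by 1.40 ± 0.08. Calcr was the single member called lower. The adhesion molecule gene Epcam did not differ beyond the spread, at 0.01 ± 0.11, with all 8 arrays between 10.76 and 11.36.

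In the list of anterior streak and organizer genes 4 of 15 were higher and 2 lower. The median was 0.54, and over all genes 2.20% were called higher and 2.47% lower. The members that fell were Tdgf1, the other Nodal co-receptor, by -1.30 ± 0.10, and Chrd, the Bmp antagonist chordin, by -1.26 ± 0.12. Nodal itself lay at 10.09 to 10.46 in F+CD24low and at 10.70 to 10.95 in F+CD24high, a separated but small difference of 0.56 ± 0.07. The co-receptor genes Cfc1 and Tdgf1 thus moved in opposite directions while the ligand gene stayed below the fold threshold.

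General pluripotency genes fell: 10 of 17 were lower and 0 higher, with a median of -1.30, and 8 were lower at day 2 against 1.83% of all genes, and 10 at day 4 against 3.33%. L1td1, an RNA-binding protein of pluripotent cells, lay at 10.38 to 10.57 in F+CD24low and at 8.46, 8.31, 7.27 and 7.69 in F+CD24high (-2.58 ± 0.13). Utf1, a chromatin factor of ES cells, lay at 12.39 to 12.81 against 8.60 to 9.59. Phc1, a Polycomb subunit, differed by -1.64 ± 0.10 and Lin28b, an RNA-binding repressor of let-7 maturation, by -1.09 ± 0.09. Pou5f1 lay at 10.84 and 10.27 in F+CD24high at day 2 and at 7.79 and 8.71 at day 4, while F+CD24low stayed between 12.52 and 12.82. Sall4, a zinc finger partner of these factors, differed by 0.45 ± 0.06 in the other direction, and Lin28a by 0.13 ± 0.08. The group therefore did not fall as a whole.

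Genes of naive pluripotency gave few calls. Of 15 measured 1, Fbxo15, was lower (-1.48 ± 0.16) and 0 were higher by limma, with a median of 0.11, and at an unadjusted p below 0.05 there were 4 above 0 and 3 below. Esrrb, an orphan receptor of the naive state, lay between 6.40 and 6.78 on all 8 arrays and at 9.70 and 10.46 in ES cells. Tfcp2l1, another naive factor, lay at 8.48 and 8.91 in F+CD24high at day 2 and at 10.06 and 10.18 at day 4, against 8.49 to 8.90 in F+CD24low, so that it passed at day 4 only (1.54). Without replicate 1 of the F+CD24high day 2 pair the orphan receptor gene Nr0b1 was called higher (1.37), and without replicate 2 there were 2 lower genes in this list.

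Formative and primed epiblast genes fell in part, with 5 of 16 lower and 2 higher and a median of -0.26. Lef1, the Wnt-responsive HMG factor, lay at 9.86 to 10.11 in F+CD24low and at 7.13 to 7.77 in F+CD24high. Etv5, an Ets factor downstream of Fgf, differed by -1.83 ± 0.09, the cationic amino acid transporter gene Slc7a3 by -1.72 ± 0.11, and Zic5, a zinc finger factor, by -1.42 ± 0.12, which became -0.95 when all probe sets of the gene were averaged. Fgf5, the classical primed marker, did not pass at 0.21 ± 0.10, with all arrays between 11.87 and 12.35. Of the DNA methyltransferases Dnmt3a differed by -1.27 ± 0.11, while Dnmt3b, its close relative, lay between 11.83 and 12.18 on all 8 arrays. Tet1, which oxidises methylcytosine, was separated downwards over both days at -0.86 ± 0.10, under the fold threshold, and was called at day 4 (-1.29). Its other probe sets differed over both days by -1.13, past the threshold (adjusted p = 3.49e-06, limma), and by -0.93.

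Epithelial genes changed unevenly. Of 21 junction genes 0 were higher and 1, P-cadherin (Cdh3), was lower by -1.60 ± 0.08, whereas 12 had an unadjusted limma p below 0.05 upwards and 2 downwards, against 17.5% and 20.2% of all genes, with a median of 0.32. Cdh1, which codes for E-cadherin, lay at 12.45 to 12.66 in F+CD24low and at 12.77 to 13.12 in F+CD24high, 0.37 ± 0.06. F11r, the junctional adhesion molecule A gene, stayed just under the threshold at 0.98 ± 0.08, and it was called without F+CD24low day 2 replicate 1 (1.02), without F+CD24low day 4 replicate 1 (1.04) and with centred arrays (1.00).

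Keratin and desmosome genes gave 5 higher and 0 lower of 16, against 2.20% and 2.47% of all genes, with a median of 0.42. Krt8 and Krt18, the keratin pair of simple epithelia, lay at 12.09 to 12.37 and 11.64 to 12.10 in F+CD24low, and at 13.36 to 13.45 and 12.94 to 13.14 in F+CD24high. Both pairs of ranges were separated, by 1.13 ± 0.11 and 1.05 ± 0.14, and the call on Krt18 was lost without F+CD24low day 2 replicate 2 (0.94) and, narrowly, without F+CD24high day 2 replicate 1. Dsc2, a desmosomal cadherin, was higher by 1.71 ± 0.17, Krt19 by 1.23 ± 0.15, and Dsp, which links desmosomes to keratin, by 1.20 ± 0.16.

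Among polarity genes and epithelial regulators 4 of 26 were higher and 0 lower, with a median of 0.39 and 17 members separated upwards, against 11.9% of all genes. The 4 were regulators, not polarity proteins. Grhl3, a grainyhead factor, lay at 8.02 to 8.76 in F+CD24low and at 10.52 to 10.93 in F+CD24high, and Elf3, an epithelial Ets factor, was higher by 2.12 ± 0.17. Ovol2, a zinc finger repressor of mesenchymal genes, was higher by 1.56 ± 0.10 and Esrp2, an epithelial splicing factor, by 1.45 ± 0.13.

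Genes of mesenchymal transition moved in no common direction, with 3 of 15 higher and 1 lower. Over all genes 2.20% were higher and 2.47% lower, and the list median was 0.03. N-cadherin (Cdh2) lay at 9.84, 9.63, 10.56 and 10.62 in F+CD24low and at 11.83, 12.01, 11.39 and 11.39 in F+CD24high (1.49 ± 0.12). Smooth muscle actin (Acta2) was higher by 1.67 ± 0.09 and fibronectin (Fn1) by 1.15 ± 0.14, although without F+CD24high day 2 replicate 2 Fn1 fell below the threshold (0.95). The single member called lower, Zeb2 (-1.05 ± 0.15), lost its call without replicate 1 of that pair and without F+CD24low day 2 replicate 2 (-0.99). Snai1 and Twist1, the regulators of transition, lay between 8.14 and 9.01 and between 7.61 and 9.29 on all 8 arrays. Vim, which codes for the filament vimentin, passed at day 4 alone (-1.37), and its F+CD24high arrays of day 2 lay at 12.12 and 13.20, far apart from each other.

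**Figure D3:**
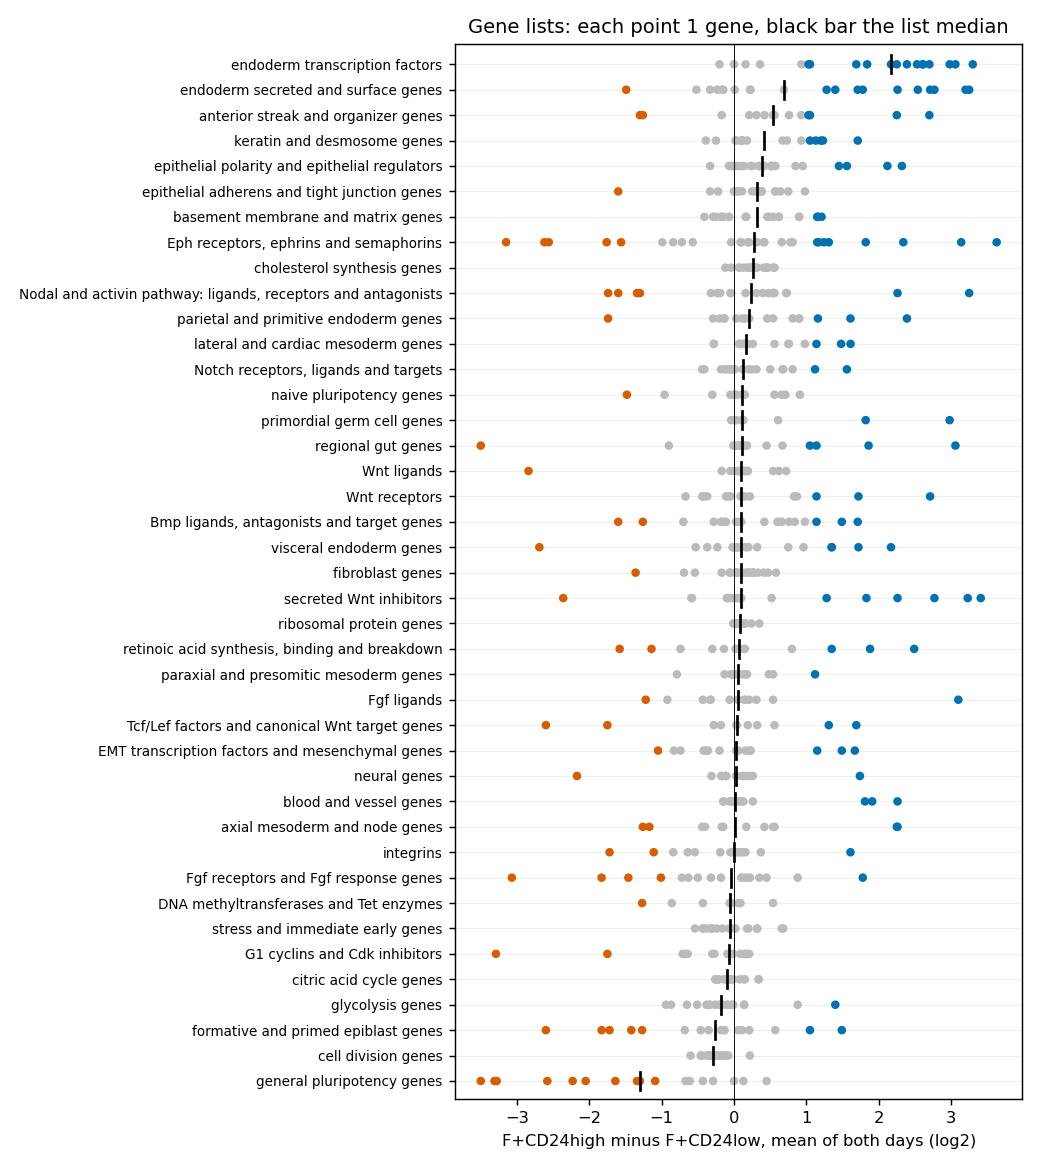
Log2 difference, F+CD24high minus F+CD24low over both days (horizontal axis), of the measured members of 41 gene lists, ordered by the list median; each point is 1 gene, blue where called higher, orange where called lower and grey where not called, and the black bar is the median. Endoderm transcription factors are 14 of 19 higher, general pluripotency genes 10 of 17 lower, and cell division genes 0 of 26 called.

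Secreted inhibitors of Wnt went in both directions, and Sfrp5 and Frzb were among the 15 most raised genes. Of 19 measured 6 were higher and 1 lower, with a median of 0.09, and 10 had a limma adjusted p below 0.05 at any size, 7 above 0 and 3 below, against 12.5% and 14.9% of all genes. Sfrp5, a secreted frizzled-related protein, lay at 6.66, 6.86, 8.50 and 8.88 in F+CD24low and at 9.59, 10.40, 12.25 and 12.32 in F+CD24high (3.41 ± 0.16). Frzb, a relative of Sfrp5, lay at 6.70, 6.73, 7.98 and 8.15 against 10.28, 10.81, 10.59 and 10.80. Sfrp1 was higher by 1.83 ± 0.14 and Shisa2, which holds back frizzled and Fgf receptors, by 1.28 ± 0.09. Sfrp2 moved the other way (-2.36 ± 0.15), with F+CD24low at 10.05 to 10.34 and F+CD24high at 7.44 to 8.58. Dkk1 lay at 9.24 and 8.86 in F+CD24low at day 2 and at 11.59 and 11.75 at day 4, while F+CD24high lay between 12.86 and 13.31.

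Of the 19 Wnt ligand genes Wnt8a alone was called. It lay at 10.48 and 10.55 in F+CD24low at day 2, at 8.93 and 8.65 at day 4, and at 6.59 to 7.03 in F+CD24high (-2.84 ± 0.07, adjusted p = 2.44e-09, limma), near its 7.39 in both ES arrays. Of 18 receptor genes 3 were higher, namely Fzd5 by 2.71 ± 0.13, Fzd8 by 1.72 ± 0.16 and Ror1, a receptor of noncanonical Wnt, by 1.14 ± 0.09. Among Tcf/Lef factors and canonical targets Tcf7l2 was higher by 1.69 ± 0.12 and Lef1 lower by -2.60 ± 0.12. Sp5, a direct target, lay at 7.73 to 7.89 in F+CD24low, at 10.02 and 9.77 in F+CD24high at day 2, and at 8.37 and 8.41 at day 4. Axin2, the usual readout of the pathway, differed by 0.32 ± 0.10 and was not called.

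The Nodal and activin list had 2 genes higher and 4 lower of 20, against 2.20% and 2.47% of all genes. Its median was 0.23. Cfc1 and Cer1, a secreted antagonist of Nodal, were higher. Fst, which binds and blocks activin, lay at 10.20 and 10.81 in F+CD24low at day 2 and at 9.03 and 9.13 at day 4, against 8.28, 9.09, 7.38 and 7.46 in F+CD24high (-1.74 ± 0.20). The inhibitory Smad gene Smad7 lay at 10.81 to 10.96 against 8.70 to 9.75 (-1.60 ± 0.10), and Gdf3 was lower by -1.34 ± 0.08. The ligand Nodal and the antagonists Lefty1 (0.72 ± 0.19) and Lefty2 (0.54 ± 0.23) were not called, although Lefty1 was called without F+CD24high day 2 replicate 2 (1.01).

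Of 21 Bmp genes 3 were higher and 2 lower, against 2.20% and 2.47% of all genes, with a median of 0.10. Bmp2, a ligand, lay at 7.99 to 8.78 in F+CD24low and at 9.27, 9.44, 10.51 and 10.70 in F+CD24high (1.71 ± 0.13). Id1, a target of Bmp signalling, was higher by 1.49 ± 0.24, and Twsg1, a modulator of the ligand, by 1.14 ± 0.08. Smad7 and Chrd, the lower members, were named above. Without F+CD24high day 2 replicate 1 there were 5 higher genes in this list.

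Most Fgf genes were not called, and the counts stand against 2.20% of all genes called higher and 2.47% lower. Among 13 ligands Fgf10 was higher, from 7.58, 7.56, 8.94 and 9.08 in F+CD24low to 11.26, 11.67, 11.37 and 11.24 in F+CD24high (3.10 ± 0.12), and Fgf15 was lower by -1.22 ± 0.08. At an adjusted limma p below 0.05 of any size, 3 ligands lay above 0 and 5 below, against 12.5% and 14.9% of all genes. Of the receptor or response genes 3 lay above 0 and 8 below at the same threshold. Without F+CD24high day 4 replicate 1 there were 2 lower ligands. Of 18 receptor and response genes 4 were lower and 1 higher, with a median of -0.04. Etv1, an Ets factor, lay at 11.45 to 11.58 in F+CD24low and at 8.94, 10.14, 7.12 and 7.59 in F+CD24high. The feedback inhibitor Spry2 was lower by -1.46 ± 0.11, and Dusp6, the phosphatase of Erk, was at -1.01 ± 0.12 just past the threshold. Its call was lost with centred arrays (-0.98) and without F+CD24high day 2 replicate 2 (-0.89), F+CD24high day 4 replicate 1 or replicate 1 of F+CD24low at either day. Flrt3, an Fgf receptor partner, was the member called higher, by 1.78 ± 0.13.

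Notch genes gave 2 higher and 0 lower of 19 by limma, the ligands Jag1 (1.56 ± 0.06) and Dll1 (1.12 ± 0.09), with 8 genes above 0 and 2 below at an unadjusted p below 0.05. In the retinoid list 3 of 15 were higher and 2 lower, against 2.20% and 2.47% of all genes. Cyp26a1, the enzyme that breaks down retinoic acid, lay at 8.70, 8.74, 9.49 and 9.35 in F+CD24low and at 11.48 to 11.60 in F+CD24high (2.49 ± 0.07). The receptor gene Rarb was higher by 1.88 ± 0.11 and Rarg lower by -1.58 ± 0.12. Rbp4, the plasma carrier of retinol, was higher by 1.35 ± 0.09 and Dhrs3, a retinaldehyde reductase, lower by -1.14 ± 0.15. The call on Dhrs3 was lost without F+CD24high day 2 replicate 2 (-0.93).

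Guidance genes went in both directions, with 8 higher and 5 lower of 28 Eph receptors, ephrins, semaphorins and their receptors. Over all genes 2.20% were higher and 2.47% lower, and the list median was 0.27. Sema6d lay at 8.08, 7.96, 9.17 and 9.41 in F+CD24low and at 11.82, 11.67, 11.74 and 11.93 in F+CD24high (3.14 ± 0.09). Its relative Sema6a moved the other way (-3.15 ± 0.11), with F+CD24low at 12.36 to 12.60 and F+CD24high at 8.95 to 9.90. These 2 transmembrane semaphorins are both ligands of class A plexins. Of those receptors Plxna4 was higher by 1.31 ± 0.10 and Plxna2 by 1.24 ± 0.12. Epha4 (2.34 ± 0.18), Efna5 (1.82 ± 0.16), Sema3f (1.17 ± 0.12) and Ephb3 (1.15 ± 0.08) were higher. Efnb2 (-2.62 ± 0.11), Sema3e (-2.56 ± 0.17), Epha1 (-1.76 ± 0.10) and Sema3c (-1.56 ± 0.18) were lower.

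Of 20 matrix genes 3 were higher and 0 lower by limma, against 2.20% and 2.47% of all genes, with a median of 0.32. At an unadjusted limma p below 0.05, 10 lay above 0 and 2 below. The laminin beta chain genes Lamb3 and Lamb1 were higher by 1.21 ± 0.11 and 1.16 ± 0.09, with Lamb1 at 10.01 to 10.19 in F+CD24low and at 11.23 to 11.31 in F+CD24high. Without F+CD24high day 2 replicate 1 there were 5 higher genes, Col4a1 (1.00) and Sparc (1.00) among them. Of 16 integrin genes 1 was higher and 2 lower. Itga5, the fibronectin receptor chain, was higher by 1.61 ± 0.08, alongside its ligand Fn1. Itga3, a laminin receptor chain, was lower by -1.72 ± 0.11, and Itga1 by -1.11 ± 0.14, a call lost without F+CD24low day 4 replicate 1.

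Genes of cell division shifted slightly and together. None of 26 was called by limma with the fold threshold, yet 19 had an adjusted p below 0.05, all of them below 0, against 14.9% of all genes, and at an unadjusted p below 0.05 there were 22 below 0 and 1 above, against 20.2% and 17.5%. The median was -0.29 and 17 members were separated downwards, against 13.8% of all genes. Cenpf, a kinetochore protein, lay at 10.79 to 11.05 in F+CD24low and at 10.20 to 10.41 in F+CD24high (-0.60 ± 0.09), and Mki67 differed by -0.24 ± 0.07. Larger changes were found in the G1 list, where 2 of 17 were lower and 0 higher, with 1 above 0 and 6 below at an unadjusted p below 0.05. Cdk6, a G1 kinase, lay at 11.47 to 11.79 in F+CD24low, at 9.21 and 9.02 in F+CD24high at day 2 and at 7.52 and 7.41 at day 4 (-3.29 ± 0.09). Its relative Cdk4 lay between 13.11 and 13.28 on all 8 arrays. Ccnd1, the D-type cyclin, was at 11.09 and 10.71 in F+CD24high at day 2 and at 8.33 and 8.55 at day 4, against 11.25 to 11.57 in F+CD24low.

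Metabolic lists held few calls. None of 19 cholesterol synthesis genes was called by limma, but 12 lay above 0 and 0 below at an unadjusted p below 0.05, against 17.5% and 20.2% of all genes, with a median of 0.26. Of 19 glycolysis genes Slc2a3 was higher and 0 were lower, with 2 above 0 and 10 below at an unadjusted p below 0.05. Ldhb, a lactate dehydrogenase chain, differed by -0.94 ± 0.14, and by -1.09 without F+CD24high day 2 replicate 1. Its other, less bright probe set passed both thresholds with all arrays (-1.07 ± 0.11, adjusted p = 1.75e-05, limma). No citric acid cycle gene of 19 was called, with 4 above 0 and 6 below at an unadjusted p below 0.05, near the shares over all genes. No ribosomal protein gene of 24 was called, with 3 above 0 and 0 below, and no stress or immediate early gene of 19, with 6 above 0 and 4 below. Slc16a1, a lactate carrier, lay at 11.77 to 12.12 in F+CD24low and at 12.49 to 13.05 in F+CD24high, still under the fold threshold (0.88 ± 0.08).

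Genes of other cell types were read across the gates. Of 21 visceral endoderm genes 4 were higher and 1 lower, with a median of 0.10. At day 2 alone 1 was higher, and at day 4 alone 6, with a median of 0.42, against 1.78% and 3.03% of all genes. Those higher over both days were Hnf4a, Apoa1, Rbp4 and Cited1. Of the 6 defining markers 2, Apoa1 (1.72 ± 0.12) and Hnf4a (2.17 ± 0.20), were higher, and their mean lay at 7.09 to 7.54 in F+CD24low and at 6.98 to 8.62 in F+CD24high. Afp (6.30 to 6.61), Ttr (5.33 to 6.46) and Amn (7.26 to 7.79) were not called, with all 8 arrays within the ranges given. Lrp2, the endocytic receptor megalin, lay at 9.64 to 10.14 in F+CD24low and at 6.78, 8.30, 6.93 and 7.04 in F+CD24high (-2.69 ± 0.29). Its partner gene Cubn, the sixth marker, lay at 10.46 and 9.77 in F+CD24low at day 2 and at 6.45 and 6.63 at day 4, and it was called lower (-1.43) once F+CD24high day 2 replicate 2 was left out. Of 17 parietal and primitive endoderm genes 3 were higher and 1 lower, and without replicate 1 of that pair 6 were higher, Srgn (1.20) among them. None of the 4 parietal markers passed the fold threshold, but their mean was separated between the gates, at 8.05 to 8.22 in F+CD24low and at 8.35 to 8.75 in F+CD24high. Pth1r, a receptor of parathyroid hormone, differed by 0.81 ± 0.09 and Sparc, a matrix protein, by 0.90 ± 0.13, with limma adjusted p of 4.69e-05 and 0.000338 and both separated upwards. Thbd lay between 6.01 and 6.46 on all 8 arrays, and Plat differed by -0.13 ± 0.17. The part of visceral or parietal cells in these differences was not tested.

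Most members of the mesodermal, vascular and neural lists were not called. The counts stand against 2.20% of all genes called higher and 2.47% lower. The paraxial markers Tbx6, Msgn1, Mesp1 and Meox1 differed by -0.03 to 0.18, and of 14 paraxial genes Dll1 alone was higher. Of 18 lateral and cardiac genes 3 were higher, the receptor gene Pdgfra (1.61 ± 0.18) and the factors Tbx20 (1.48 ± 0.19) and Isl1 (1.14 ± 0.13). Hand1, Foxf1 and Nkx2-5 differed by 0.13 to 0.16. Of 16 blood and vessel genes 3 were higher, Runx1, a factor of blood stem cells (2.26 ± 0.10), Flt1, a VEGF receptor (1.91 ± 0.10), and Gata1, while Kdr, Pecam1, Cdh5 and Tal1 differed by -0.03 to 0.26. Runx1 lay at 8.58 to 9.55 in F+CD24low and at 11.04 to 11.64 in F+CD24high. In the neural list of 15 Hesx1 was higher (1.74 ± 0.22) and Nes lower (-2.17 ± 0.29), and Sox1, Pax6 and Six3 differed by -0.16 to 0.04.

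Regional gut genes gave 4 higher and 1 lower of 18, against 2.20% and 2.47% of all genes. Irx3, an Iroquois homeobox factor, lay at 7.18 to 7.87 in F+CD24low and at 9.05 to 9.85 in F+CD24high (1.86 ± 0.13), beside Hhex, Otx2 and Isl1. The member called lower was Sox2, here a foregut gene as well as a pluripotency gene. The number of lower genes in this list depended on F+CD24high day 2 replicate 1. In the list of 12 axial mesoderm and node genes Gsc and Cer1 were higher and Chrd and Cfap126 (-1.17 ± 0.19) lower, the last not called without F+CD24low day 4 replicate 2 (-0.91). None of the 3 node markers passed the fold threshold. Foxj1, a forkhead factor of motile cilia, lay at 8.42 to 8.64 in F+CD24low and at 7.99 to 8.21 in F+CD24high, a separated difference of -0.44 ± 0.07 (adjusted p = 0.00088, limma), while Noto and Shh differed by -0.15 ± 0.10 and -0.17 ± 0.10. Dnah11, a dynein chain of cilia in the same list, was separated as well (-0.40 ± 0.07). Primordial germ cell genes gave 2 higher and 0 lower of 8 by limma, Prdm1 and Kit, and 3 above 0 and 0 below at an unadjusted p below 0.05. Of 22 fibroblast genes Thbs2 was lower (-1.36 ± 0.12), and Col1a1 was called higher (1.14) without replicate 1 of the F+CD24high day 2 pair.

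The gate difference was next compared between the days, which share no array. At day 2, 333 genes were higher and 342 lower, and at day 4, 567 were higher and 623 lower, so that more genes passed at the later day. Of these, 269 were higher and 288 lower at both days, and 0 were called in opposite directions. The interaction, the difference at day 4 minus the difference at day 2, was called above 0 in 95 genes (0.508%) and below 0 in 102 (0.545%). Of the 197 genes 175 were called at 1 day or both, of which 76 above 0 and 75 below 0 had the larger difference at day 4, and 4 and 20 the smaller. With the 8 arrays of these gates fitted alone the counts were 53 and 56. They were 0 and 0 once a block for the day and replicate number was added to that fit, with the numbers as given or crossed at day 2, and 2 and 0 when tested against a difference of 1 (limma's treat), so the calls on a change between the days depend on the fit. At an unadjusted limma p below 0.05 and a size above 1, 157 genes lay above 0 and 174 below in the main fit, and 153 and 173 with the block. The blocked fits kept 2 residual degrees of freedom, against 8 in the main fit and 4 with the 8 arrays alone. They therefore estimate the spread less well, and the absence of calls in them cannot decide whether the differences changed. The counts also depended on single arrays. Leaving out 1 array gave 55 to 217 genes above 0 and 47 to 156 below, lowest without F+CD24high day 4 replicate 1 and highest without F+CD24high day 2 replicate 2. The count above 0 was also low without F+CD24high day 4 replicate 2 (59) and F+CD24low day 4 replicate 1 (59) and 2 (62), and that below 0 without F+CD24low day 2 replicate 2 (63) and F+CD24low day 4 replicate 1 (66) and 2 (59).

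**Figure D4:**
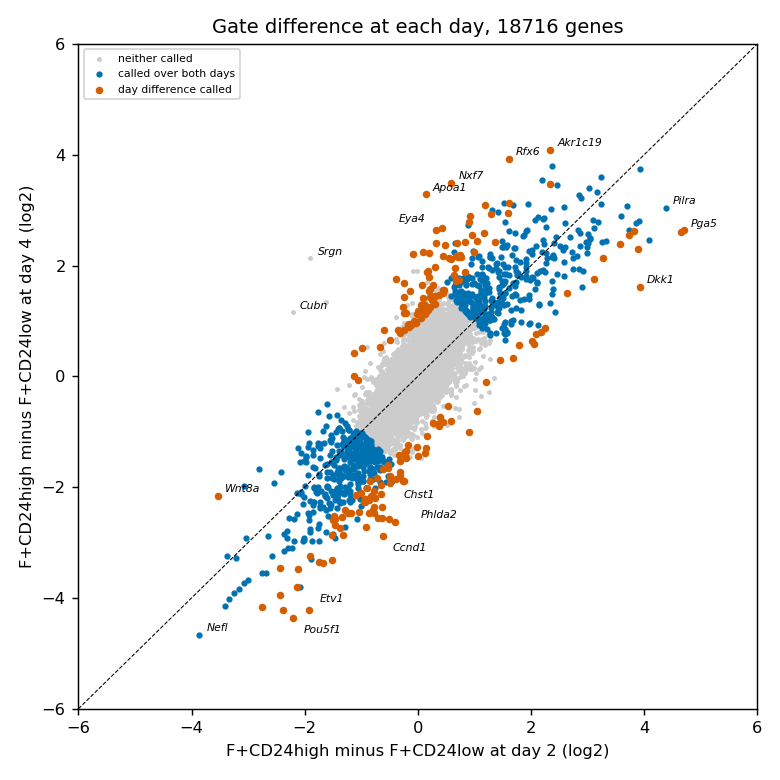
Log2 difference between the gates at day 4 (vertical axis) against day 2 (horizontal axis) for 18716 genes; each point is 1 gene, orange where the interaction was called, blue where the gene was otherwise called over both days and grey where neither was, and the dashed line marks equal differences. Apoa1 differs by 0.14 at day 2 and 3.29 at day 4, and Dkk1 by 3.92 and 1.62.

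Late risers were led by Apoa1, the apolipoprotein of high-density lipoprotein, which lay at 7.76 to 9.06 in F+CD24low, at 8.04 and 7.94 in F+CD24high at day 2, and at 12.10 and 11.97 at day 4 (interaction 3.15, adjusted p = 0.000287, limma). Rfx6, a factor of the pancreas and gut endocrine lineage, lay at 6.34 to 7.29 in F+CD24low, at 7.75 and 8.40 in F+CD24high at day 2 and at 11.06 and 11.20 at day 4. Eya4, a transcriptional co-activator phosphatase, and Tbx20, a T-box factor, differed by 0.42 and 0.32 at day 2 and by 2.68 and 2.64 at day 4. Rfx6 was called higher at day 2 already (1.61 ± 0.23), whereas Apoa1, Eya4 and Tbx20 were not called there. Nxf7 differed by 0.59 and 3.49, and Rarres1, a retinoid-responsive gene, by -0.09 and 2.21. The call on Rarres1 over both days was lost without F+CD24high day 2 replicate 1 (0.97) and F+CD24low day 4 replicate 2 (0.91).

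Larger deficits at day 4 were found for Ccnd1, Etv1, Phlda2 and Pou5f1. Pou5f1 and Etv1 were lower at day 2 already, by -2.20 ± 0.25 and -1.92 ± 0.28, whereas Ccnd1 and Phlda2 were not called at that day. Phlda2, an imprinted growth regulator, lay at 11.14 to 12.02 in F+CD24low, at 11.30 and 11.87 in F+CD24high at day 2 and at 8.69 and 8.74 at day 4. Ccnd1 differed by -0.61 at day 2 and -2.89 at day 4. Chst1, a keratan sulfate sulfotransferase, differed by -0.51 and -2.58, since it rose in F+CD24low from 8.78 and 9.08 to 10.33 and 10.47. For Dkk1 the interaction of -2.30 came with a smaller difference at day 4, as F+CD24low rose towards F+CD24high. Of the 411 called higher genes 355 had a higher F+CD24low mean at day 4 than at day 2, with a median shift of 0.31, and 347 a higher F+CD24high mean, with a median shift of 0.57, against 0.01 over all genes in each gate. For the 463 lower genes the median shift was 0.10 in F+CD24low and -0.34 in F+CD24high.

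**Figure D5:**
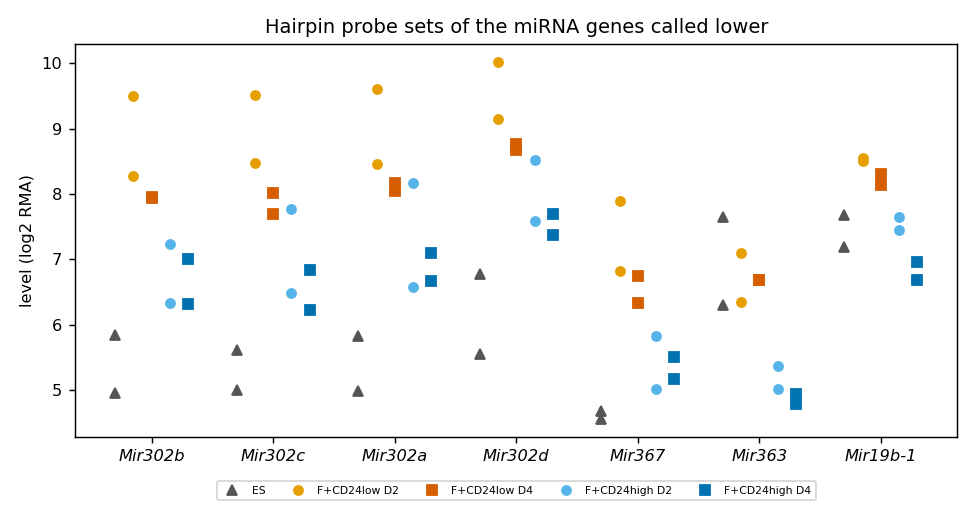
Log2 level of the probe sets of 7 microRNA genes on each array of ES cells, F+CD24low and F+CD24high at days 2 and 4; each point is 1 of 2 arrays in its group. The 5 hairpins of the miR-302 cluster are high in F+CD24low and low in ES cells.

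MicroRNAs are short RNAs that pair through their seed, bases 2 to 8, with target transcripts and repress them. Among 203 microRNA genes on the array 7 were lower and 1 higher in F+CD24high, against 2.47% and 2.20% of all genes. The median difference was 0.00, and these genes were examined after their values were seen. The probe sets measure the hairpin precursor or its host transcript, not the mature RNA. The 5 hairpins of the miR-302 cluster, which lie within 580 bases on the plus strand of chromosome 3 (chr3:127545228-127545807, GRCm38.p6), were all lower, as was Mir363 on the X chromosome and Mir19b-1 on chromosome 14. The mature sequences, from RefSeq, are printed with the seed in capitals because they show how the lower genes fall into seed families:
miR-302b-3p: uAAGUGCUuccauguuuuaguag
miR-302d-3p: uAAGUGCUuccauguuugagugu
miR-302c-3p: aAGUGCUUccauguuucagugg
miR-367-3p: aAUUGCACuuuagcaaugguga
miR-363-3p: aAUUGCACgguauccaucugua
miR-92a-3p: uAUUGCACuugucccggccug
miR-19b-3p: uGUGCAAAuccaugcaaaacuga

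The arms miR-302b-3p and miR-302d-3p share the seed AAGUGCU, held by 5 of the 1679 mature mouse microRNAs in the table. The arm miR-302c-3p has its own, AGUGCUU, shifted by 1 base. For Mir302a, the remaining hairpin of the cluster, RefSeq held no 3p arm, so that arm is neither printed nor counted. The arms miR-367-3p and miR-363-3p, from different chromosomes, share AUUGCAC with miR-92a-3p, 6 of 1679 in all. The Mir302b probe set lay at 9.50, 8.28, 7.94 and 7.95 in F+CD24low and at 7.23, 6.33, 6.32 and 7.00 in F+CD24high, against 4.95 and 5.84 in ES cells (-1.70 ± 0.38, adjusted p = 0.00749, limma). Mir367 lay at 7.89, 6.82, 6.33 and 6.75 against 5.83, 5.02, 5.17 and 5.51 (-1.56 ± 0.24). Hairpins of both seed families in the cluster were thus higher in the progenitors than in either ES cells or F+CD24high cells.

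Mir302c (-1.59 ± 0.32), Mir302a (-1.44 ± 0.38) and Mir302d (-1.36 ± 0.32) had wider errors, and Mir302c and Mir302a were not separated between the gates. The call on Mir302a was lost without F+CD24high day 2 replicate 2 (adjusted p = 0.0591), F+CD24high day 4 replicate 1 (0.0677), F+CD24low day 2 replicate 1 (0.0782) or F+CD24low day 4 replicate 2 (0.0547) in limma. With the days merged into 1 group a gate, none of the 5 hairpins passed in limma, with adjusted p from 0.0821 for Mir367 to 0.174 for Mir302a and the same differences. The 5 probe sets cover 1 transcribed stretch and are not independent. Larp7, within whose bounds the cluster lies, differed by -0.42 ± 0.06. Mir363 (-1.68 ± 0.26) lay at 6.34 to 7.09 against 4.78 to 5.36, and Mir19b-1 (-1.19 ± 0.13) at 8.14 to 8.55 against 6.69 to 7.65. Beside Mir19b-1 on chromosome 14, Mir19a (-0.94), Mir20a (-0.70), Mir17 (-0.56) and Mir18 (-0.56) stayed under the fold threshold. Their limma adjusted p were 0.00224, 0.000433, 0.000135 and 0.009. Beside Mir363, Mir19b-2 (-0.60) and Mir106a (-0.38) had limma adjusted p of 0.00968 and 0.00554. Mir20b (-0.29) and Mir92-2 (-0.17), also beside it, had 0.155 and 0.162. Mir92-2 is a gene of the third arm with the AUUGCAC seed. The single higher gene was Mir717 (1.93 ± 0.15), and Gpc3, the glypican gene within whose bounds it lies on the X chromosome, was higher by 1.82 ± 0.10.

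Both gates were chosen for the Foxa2 reporter, so promoters were read for the forkhead motif TGTTTAC on both strands, in windows of 250 bases before to 50 bases after the start from RefSeq. It stood in 2.51% of the 439 windows of higher genes (11), in 2.76% of the 471 windows of lower genes (13), in 2.82% of the windows of all tested genes and in 3.65% of all windows. These shares lie side by side with no test. For the motif AGATAA of Gata factors the shares were 9.79% in higher, 5.73% in lower and 8.39% in all tested genes, for ATTGTT of Sox factors 5.92%, 8.49% and 7.41%, and for the octamer ATGCAAAT 1.59%, 2.12% and 1.49%. The E-box CACCTG of Snai and Zeb factors stood in 25.5%, 20.6% and 19.9%, CTTTGA of Tcf and Lef factors in 11.8%, 10.2% and 13.6%, and TATAAA in 10.7%, 9.34% and 10.1%. A match is a description of the letters and says nothing about binding.

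Of the higher genes with a forkhead match, 4 that are named in the results are shown by the 250 bases before the start, from RefSeq on GRCm38.p6, with the match in capitals (GTAAACA is the same motif on the other strand). They are Foxa1 (chr12:57546112-57546361, minus strand, match from base -141), Prdm1 (chr10:44458749-44458998, minus, -231), Fgf10 (chr13:118714449-118714698, plus, -11) and Cpn1 (chr19:43986521-43986770, minus, -65), each with 1 match. Their differences were 2.61, 2.98, 3.10 and 3.39.
Foxa1: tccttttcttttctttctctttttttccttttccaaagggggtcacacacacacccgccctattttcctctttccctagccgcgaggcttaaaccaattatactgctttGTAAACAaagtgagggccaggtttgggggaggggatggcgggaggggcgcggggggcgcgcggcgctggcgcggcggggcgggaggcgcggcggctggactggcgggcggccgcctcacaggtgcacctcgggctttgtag
Prdm1: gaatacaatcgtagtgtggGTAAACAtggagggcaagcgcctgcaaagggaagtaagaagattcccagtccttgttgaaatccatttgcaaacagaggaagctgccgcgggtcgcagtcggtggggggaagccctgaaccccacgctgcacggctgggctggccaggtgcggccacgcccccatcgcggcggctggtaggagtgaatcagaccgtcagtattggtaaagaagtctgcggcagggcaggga
Fgf10: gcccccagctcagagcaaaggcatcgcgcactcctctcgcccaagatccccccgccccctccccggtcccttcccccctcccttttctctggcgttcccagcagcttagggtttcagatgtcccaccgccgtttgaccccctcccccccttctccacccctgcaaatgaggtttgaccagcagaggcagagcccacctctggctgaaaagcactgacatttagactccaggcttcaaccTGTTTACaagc
Cpn1: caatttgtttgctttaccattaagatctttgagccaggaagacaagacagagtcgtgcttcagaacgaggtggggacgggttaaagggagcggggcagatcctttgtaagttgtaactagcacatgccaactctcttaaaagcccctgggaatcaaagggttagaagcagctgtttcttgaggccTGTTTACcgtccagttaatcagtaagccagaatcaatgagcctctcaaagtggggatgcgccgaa

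The X chromosome held many of the lower genes, a pattern looked at after the values were seen. Of 669 X-linked genes 44 were lower (6.58%) and 22 higher (3.29%), while on the single autosomes 1.44% to 3.97% were lower and 1.24% to 4.20% higher, and the median difference of X-linked genes was -0.01. The lower genes were led by Pim2, Fndc3c1 (-3.19), Map7d3 (-3.12) and Lpar4, a lysophosphatidic acid receptor (-2.91). Prps2 (-2.76) and Prps1 (-2.67), similar genes of nucleotide synthesis, were lower as well, but how far their probes separate them is uncertain. Rragb, a Rag GTPase of nutrient sensing, lay at 9.10 to 9.42 in F+CD24low, at 7.48 and 7.68 in F+CD24high at day 2 and at 5.90 and 6.07 at day 4. The higher X-linked genes included Irs4, Aff2 (2.61), Amot, a Hippo pathway scaffold (2.41), and the amino acid transporter gene Slc38a5 (2.37). Xist, the transcript that coats an inactive X, lay between 5.17 and 5.65 on all 8 arrays and at 8.54 and 8.05 on the ES arrays. On the ES arrays the mean of the 5 fibroblast markers was also higher, at 9.55 to 9.94, against 7.29 to 7.43 in F+CD24low and 7.26 to 8.09 in F+CD24high. The part of feeder cells in the Xist signal was not tested.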

How the data were processed

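RNA of the sorted cells was hybridised to whole-transcript Affymetrix arrays (Mouse Gene ST 1.0), 1 array for each of 2 biological replicates in 8 groups. The authors made the deposited values with RMA in the R package oligo 1.48.0, which corrects background, quantile-normalizes and summarises probes as log2 signals. Quantile normalization hides any change in total RNA, the values carry no detection calls, and the number of arrays limits the precision. Here the 32000 of 35556 probe sets with the highest mean were kept. A gene was read from its brightest probe set with 1 symbol, which gave 18716 genes from 20427 probe sets. The deposited log2 values of all 16 arrays were fitted with 8 group means in limma 3.58.1 (R 4.3.3), with Benjamini-Hochberg adjustment over the 32000 probe sets. Errors are SE from limma unless stated, n = 4 arrays a gate, and the scripts were tested on simulated data. Values of p measure the spread between 2 replicates, pooled over groups.

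Named were the gate genes, the 15 largest differences a direction, up to 6 called members of each of 41 gene lists with further members where a role is described, and the 6 strongest interactions a direction. Other genes were chosen after their values were seen, as the text says for microRNA and X-linked genes and as holds for the genes that told the day 2 replicates apart. The comparison, lists and markers were chosen with earlier results of these data known. Sequences came from RefSeq tables. Alternatives tried were the number of probe sets, the arrays and groups fitted, replicate blocks, leaving out each array, centring, other thresholds, all probe sets of a gene and each day alone.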

Additional observations from a re-analysis of the deposited data

Results flagged for a closer look

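In 45 of the genes named here the difference between the gates itself differed between day 2 and day 4 in limma's interaction test, by more than 1 log2 unit and with an adjusted p below 0.05. None of these interactions was called when a block for the day and replicate number was added to a fit of the 8 arrays, with the numbers as given or crossed at day 2. The blocked fits kept 2 residual degrees of freedom, against 8 in the main fit, and so estimate the spread less well. The absence of calls in them cannot decide whether the differences changed. Values are the difference at day 4 minus that at day 2.

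The interaction was positive for Apoa1 (3.15), Nxf7 (2.90), Rfx6 (2.33), Tbx20 (2.31), Rarres1 (2.30), Eya4 (2.26), Gata3 (1.88), Akr1c19 (1.75), Isl1 (1.68), Tfcp2l1 (1.67), Rbp4 (1.58), Slc38a5 (1.51), Rarb (1.41), Wnt8a (1.37), Plxna4 (1.30), Fgfr2 (1.15) and Wnt5a (1.01). All of these except Wnt8a had a higher level in F+CD24high at day 4, and for Wnt8a the deficit was smaller at day 4.

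It was negative with a larger deficit at day 4 for Ccnd1 (-2.29), Etv1 (-2.29), Phlda2 (-2.22), Pou5f1 (-2.17), Chst1 (-2.07), Cdk6 (-1.83), Rragb (-1.78), Cdh3 (-1.60), Fgfr1 (-1.50), Fndc3c1 (-1.50), Timp4 (-1.39), Nanog (-1.35), Calcr (-1.34), Tdgf1 (-1.31) and Etv5 (-1.29). It was negative with a smaller excess at day 4 for Dkk1 (-2.30), Pga5 (-2.06), Nrp1 (-2.05), Fgf10 (-1.60), Sp5 (-1.46), Cdh2 (-1.38), Jag1 (-1.38), Sema3f (-1.22), Frzb (-1.20), Sema6d (-1.19), Prdm1 (-1.18) and Lhx1 (-1.14). Dusp4 (-1.65), a phosphatase of the Erk pathway, differed by 1.04 at day 2 and by -0.62 at day 4, the second value not called.

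The Fgf receptor genes went apart. Fgfr1 differed by 0.12 at day 2 and by -1.38 at day 4, and Fgfr2 by 0.30 and 1.45.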

How the results depend on the processing

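The counts of genes over both days and at each day stayed within 1.5 times their value with 16000 or all probe sets, the 8 arrays of the gates alone, all probe sets of a gene averaged, centred arrays, a trended robust fit and a replicate block. On an adjusted p alone, limma called 2345 genes higher and 2794 lower over both days, 1009 and 1322 at day 2, and 1992 and 2162 at day 4. With differences above 2 these were 106 and 82, 102 and 49, and 144 and 152, and with a test against a difference of 1 (limma's treat) 203 and 198, 127 and 71, and 211 and 226. The interaction gave 10 genes above 0 and 8 below with the threshold of 2, 2 and 0 with treat (52 and 46 at an unadjusted p below 0.05), and 53 and 56 with 8 arrays. Leaving out each array gave 400 to 450 genes higher and 454 to 484 lower, at day 2 308 to 406 and 298 to 404, at day 4 557 to 574 and 595 to 643, and for the interaction 55 to 217 and 47 to 156, where the lone array is assumed to vary like the others. Replicate numbers are shared by the groups but deviations of same-numbered arrays correlated at -0.133 between the gates at day 2 and at -0.014 at day 4, so the numbers were not taken to pair samples. A replicate block over all 16 arrays left 411 genes higher and 463 lower. A day-by-replicate block over 8 arrays left the same 411 and 463 as counts, but no interaction was called, 0 and 0 (153 above 0 and 173 below by more than 1 at an unadjusted p below 0.05). The crossed day 2 pairing, added after the data were seen, gave 411 and 460, and 0 and 0 for the interaction (153 and 171 at an unadjusted p below 0.05). Rarres1 differed by -0.09 at day 2 alone, against 1.06 over both days, which reverses its sign. Of the 263 genes examined singly, all kept their side of the thresholds with 8 arrays, all probe sets, both replicate blocks and the trended robust fit, 247 with the days merged, and 233 at day 2 alone. The causes were not tested.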
